A study of Mus musculus with 9 samples.

Results

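Nlrc5 and the genes whose products build the MHC class I molecule were followed in naive CD4+ T cells of the mouse, before and after culture and with or without the cytokine IL-1b. The set is a list of gene symbols, chosen with earlier results of these data known, and holds 10 of the 55487 genes in the deposited tables: H2-K1, H2-D1, H2-Q4, H2-Q6, H2-Q7, H2-T22, H2-T23, B2m, Tap1 and Nlrc5. All 10 passed the filter on low counts. RNA-seq was run on 9 libraries in 3 groups of 3: IL-1b-treated cells, which spent 20 h in culture with 10 ng/mL of recombinant IL-1b, cultured cells, which spent the same time without the cytokine, and fresh cells, used directly after preparation with no treatment. The genotype of every library is WT and the strain C57BL6/J, the source tissue is lymph nodes, and the labels give no age and leave unsaid whether the replicates are separate animals.

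MHC class I molecules present peptides from inside the cell to CD8 T cells and to receptors of NK cells, and nearly every nucleated cell carries them. Each molecule is a heavy chain joined to the light chain beta-2 microglobulin (B2m) and loaded with a peptide that the Tap1-Tap2 transporter brings into the endoplasmic reticulum. Nlrc5, a nuclear member of the NOD-like receptor family, is the main transactivator of class I genes in lymphocytes: it has no DNA-binding domain of its own and acts through the RFX, CREB/ATF and NF-Y proteins held at the SXY module of these promoters. Interferons raise Nlrc5 and the class I genes through factors that include Irf1, and the IL-1 receptor signals to NF-kappa B, for which the classical class I promoters carry a site called enhancer A.

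The genes lie in 3 places. The heavy chain genes and Tap1, 8 genes in all, span 2047 kb of the MHC on chromosome 17 (mm10 coordinates, GENCODE M21): H2-K1 at chr17:33996017-34000347 on the minus strand, Tap1 at chr17:34187553-34197225, H2-D1 at chr17:35262730-35267499, H2-Q4 at chr17:35379617-35385290, H2-Q6 at chr17:35424850-35430055 and H2-Q7 at chr17:35439155-35443773 on the plus strand, and H2-T23 at chr17:36029773-36032855 and H2-T22 at chr17:36037128-36042747 on the minus strand. B2m is at chr2:122147686-122153083 and Nlrc5 at chr8:94434356-94527272, both on the plus strand. All are annotated as protein coding.

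The promoters are printed because the factors named above meet these genes there. RefSeq windows on GRCm38.p6 running from 250 bases before to 50 after the transcription start matched 9 of the 10 genes, all but Nlrc5, with the first of 2 listed windows taken for H2-K1. Capitals mark, from left to right, the kappa B letters of enhancer A, the 6 letters at the place of the X2 box of the SXY module, and CCAAT letters on either strand. The Y box of the SXY module reads as ATTGG in class I promoters, and a CCAAT in capitals is a match of letters only. The stretches are chr17:34000354-34000463 (minus strand) for H2-K1, chr17:35262918-35263050 for H2-D1, chr17:35379439-35379571 for H2-Q4, chr17:35424672-35424804 for H2-Q6 and chr17:35439017-35439148 for H2-Q7.
H2-K1: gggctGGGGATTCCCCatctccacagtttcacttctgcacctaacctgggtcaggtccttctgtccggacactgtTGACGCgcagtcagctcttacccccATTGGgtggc
H2-D1: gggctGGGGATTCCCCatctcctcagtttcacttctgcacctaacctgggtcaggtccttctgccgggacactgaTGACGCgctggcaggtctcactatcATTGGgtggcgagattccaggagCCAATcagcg
H2-Q4: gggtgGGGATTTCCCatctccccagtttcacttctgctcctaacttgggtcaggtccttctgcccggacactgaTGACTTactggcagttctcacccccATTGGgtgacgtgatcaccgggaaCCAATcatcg
H2-Q6: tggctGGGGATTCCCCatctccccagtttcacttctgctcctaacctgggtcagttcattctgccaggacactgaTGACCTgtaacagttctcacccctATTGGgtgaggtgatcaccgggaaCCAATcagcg
H2-Q7: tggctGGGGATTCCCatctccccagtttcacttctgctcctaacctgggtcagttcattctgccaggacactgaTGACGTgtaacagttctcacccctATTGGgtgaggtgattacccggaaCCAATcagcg

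The letters searched differed between the heavy chain promoters. The full enhancer A letters, those in capitals near the left end of the H2-K1 line, were searched on both strands and stood in H2-K1, H2-D1 and H2-Q6 and in 10 of 32851 windows in all, or 0.0304%. H2-Q7 lacked the last base, and its shorter letters, which lie inside the longer ones and were chosen as a search string after the sequences had been seen, were in 35 windows (0.107%), 4 of them of these genes. Another kappa B string was GGGA followed by any base, TT, any base and CC, which the full enhancer A letters do not match. It was found in H2-Q4 and B2m, in the form GGGATTTCCC in H2-Q4, and in 1.20% of all windows. At the place of the X2 box H2-K1 and H2-D1 had TGACGC, a string found in either orientation in 7.40% of windows, whereas H2-Q4 had TGACTT, H2-Q6 TGACCT and H2-Q7 TGACGT. H2-Q4 held the TGACGC string only after its start, on the other strand. The CCAAT letters, on either strand, were in all 9 windows and in 37.4% of windows overall. In H2-T23 and Tap1 they stood only as CCAAT and not as ATTGG. A match of letters is a description and shows no binding.

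The B2m window held a different mix of the letters searched. In its stretch, chr2:122147543-122147643, the capitals mark an interferon response core, the kappa B letters on the other strand and the CCAAT letters. The place of the X2 box was marked only in windows that share the flanking letters of the heavy chain lines. The tgacga of B2m before ATTGG lacks those flanking letters and is therefore in lower case.
B2m: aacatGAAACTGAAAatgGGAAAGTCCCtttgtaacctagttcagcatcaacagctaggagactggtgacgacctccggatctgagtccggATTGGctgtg
The interferon response core, GAAA and GAAA with any 2 bases between them, was in the windows of B2m, H2-T22 and H2-T23 and in 3.44% of all windows on either strand. Only exact letters were counted. Each heavy chain line printed above holds tttcacttct, which is near these letters on the other strand but does not match them. A window without the exact letters may therefore still hold such an element. The letters of a gamma activated site, TTCNNNGAA, were in none of the 9 windows and in 8.30% of all windows.

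Several of these genes share reads with close copies, and this limits the values of each row alone. Of the 50-base stretches in the H2-T22 transcripts 34.5% also occurred in another gene, chiefly H2-T10. The share was 32.0% in H2-Q6, 26.4% in H2-Q7, 21.8% in H2-Q4, 13.6% in H2-T23, 12.8% in H2-D1 and 9.63% in H2-K1, against 0.44% in Tap1 and 0 in B2m and Nlrc5. Over 100 bases the share was 12.0% in H2-Q7 and 10.8% in H2-Q6, the highest among these genes. The expected counts of H2-Q4, H2-Q6 and H2-Q7 were not whole numbers in any of the 9 libraries, which shows that reads were divided between rows. Those of H2-T22 and Tap1 were not whole in 8 libraries each, those of H2-D1 in 2 and those of H2-T23 in 1. The split among the H2-Q genes and between H2-T22 and H2-T10 is therefore uncertain, and sums over each family are given beside them. Such sums do not settle reads shared between families. Of its 50-base stretches H2-K1 shared most with H2-Q10 (5.18%) and H2-D1 with H2-Q1 (5.87%).

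The libraries held 13518814 to 23056686 counts, so that 3 counts equal 0.130 to 0.222 CPM (counts relative to the library total), a floor far below every one of the 10 genes. The 13 markers of naive CD4 T cells were all detected, with a summed level of 7775 to 8102 TPM in IL-1b-treated, 8390 to 8597 TPM in cultured and 10252 to 10380 TPM in fresh libraries. TPM is a level per transcript length that sums to the same total in every library, so a value in TPM is relative to the other RNA. Most markers of other cells were low: 10 B cell genes summed to 4.75 to 7.42, 4.56 to 5.66 and 58.1 to 73.0 TPM in IL-1b-treated, cultured and fresh libraries, 6 NK cell genes to 9.92 to 13.8, 13.4 to 16.8 and 59.0 to 59.3 TPM, and 6 neutrophil genes to 0 to 2.22, 0.12 to 0.40 and 14.0 to 37.9 TPM. The 2 CD8 genes ran the other way, with 37.9 to 42.4, 41.2 to 50.1 and 23.8 to 25.6 TPM. The 12 myeloid and dendritic genes summed to 89.0 to 99.0, 80.3 to 87.4 and 70.1 to 83.7 TPM, most of it Cst3, with Cd14 and Xcr1 at 0 in every IL-1b-treated and cultured library, and Siglech and Tyrobp also in the IL-1b-treated ones. The 5 erythroid genes summed to 0.15 to 1.76, 0.52 to 4.03 and 7.83 to 35.7 TPM. The 6 stromal and endothelial genes summed to 140 to 149, 180 to 181 and 149 to 162 TPM, nearly all of it Pecam1, which averaged 145, 180 and 158 TPM, with Ccl21a, Pdgfra and Pdpn at 0 in every library and Col1a1 and Cdh5 at 0.17 TPM or less. The transcripts behind the counts also differed in length: weighted by counts, the median effective length of a transcript was 1789 ± 7.24 bases with IL-1b, 2121 ± 18.4 in cultured and 2370 ± 10.8 in fresh libraries (SD, n = 3 each). The part of these shifts in the results below was not tested beyond the fits that remove length and GC trends.

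Nlrc5 was lower in cultured than in fresh cells and lower again with IL-1b. It stood at 81.1, 87.0 and 84.4 TPM in the 3 IL-1b-treated libraries, at 124, 129 and 119 TPM in the cultured and at 257, 274 and 265 TPM in the fresh ones, and no groups overlapped. In tests on TMM-scaled counts (edgeR quasi-likelihood, Benjamini-Hochberg adjustment over 13043 genes), Nlrc5 fell by 0.81 ± 0.03 on the log2 scale (SE) in cultured against fresh cells (adjusted p = 1.96e-15), and by 1.02 ± 0.03 in IL-1b-treated against fresh cells (adjusted p = 2.09e-17). The difference between IL-1b-treated and cultured cells was smaller, a fall by 0.21 ± 0.03 (adjusted p = 7.97e-05), and it missed the threshold of 0.05 when GC and length trends were removed (log2 fold change -0.07, adjusted p = 0.104). In a bulk sample, fewer cells carrying a transcript and less of it per cell cannot be told apart.

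The classical heavy chains H2-K1 and H2-D1, which present peptides to CD8 T cells, were the most abundant of the heavy chain genes in every group. H2-K1 had 3740, 4100 and 4011 TPM in IL-1b-treated, 4541, 4279 and 4677 TPM in cultured, and 6954, 6836 and 6747 TPM in fresh libraries. H2-D1 had 994, 1053 and 1044 TPM in IL-1b-treated, 1376, 1308 and 1402 TPM in cultured, and 2431, 2388 and 2428 TPM in fresh libraries. In TPM both genes were lowest with IL-1b and highest in fresh cells, with no overlap. On TMM-scaled counts both fell in cultured against fresh cells, H2-K1 by 0.31 ± 0.03 (adjusted p = 1.88e-09) and H2-D1 by 0.59 ± 0.03 (adjusted p = 8.59e-15). With IL-1b against fresh cells H2-K1 fell by 0.19 ± 0.03 (adjusted p = 2.92e-06) and H2-D1 by 0.67 ± 0.03 (adjusted p = 5.86e-16). The TPM of H2-D1 was 26.1% of that of H2-K1 in IL-1b-treated, 30.3% in cultured cells and 35.3% in fresh cells.

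Between IL-1b-treated and cultured cells, the direction of H2-K1 depended on the scale. It was 3674 ± 139 CPM in IL-1b-treated and 3379 ± 141 CPM in cultured cells after TMM scaling (SD, n = 3 each), a log2 fold change of 0.12 ± 0.03 (adjusted p = 0.00176), but -0.19 on log2(TPM + 1) and 0.00 when counts were scaled by library size alone. H2-D1 fell by 0.08 ± 0.03 (adjusted p = 0.0377) and this call was lost in 11 of the 21 alternative settings, among them the sum of both genes, which reversed the direction, and leaving out IL-1b-treated replicate 1 (adjusted p = 0.220) or cultured replicate 3 (adjusted p = 0.247). The summed counts of both genes did not pass the test (log2 fold change 0.06 ± 0.03, adjusted p = 0.109).

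The largest changes between cultured and fresh cells among the 10 genes were those of H2-Q6 and H2-Q7. H2-Q6 and H2-Q7 encode Qa-2, a nonclassical class I molecule with little variation between individuals, and H2-Q4 another nonclassical heavy chain. H2-Q6 had 41.7, 39.8 and 40.9 TPM in IL-1b-treated, 62.3, 61.9 and 60.3 TPM in cultured, and 476, 486 and 486 TPM in fresh libraries. H2-Q7 had 451, 522 and 510 TPM in IL-1b-treated, 653, 600 and 643 TPM in cultured, and 1697, 1682 and 1710 TPM in fresh libraries. The fresh libraries stood far above the others for both genes, and H2-Q6 alone was 7.85 times as high in fresh as in cultured cells by mean TPM. H2-Q4 had 227, 253 and 250 TPM in IL-1b-treated, 334, 327 and 331 TPM in cultured, and 683, 649 and 685 TPM in fresh libraries.

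On TMM-scaled counts H2-Q6 fell by 2.73 ± 0.04 (adjusted p = 2.85e-24), H2-Q7 by 1.21 ± 0.03 (adjusted p = 5.77e-19) and H2-Q4 by 0.78 ± 0.04 (adjusted p = 9.33e-14) in cultured against fresh cells. Summed over the 8 H2-Q rows, which does not depend on how reads were split among them, the fall was 1.27 ± 0.03 (adjusted p = 7.11e-20). With IL-1b the sum fell by 1.42 ± 0.03 against fresh cells (adjusted p = 4.94e-21) and by 0.15 ± 0.03 against cultured cells (adjusted p = 0.000377). Against cultured cells H2-Q6 fell by 0.27 ± 0.04 with IL-1b (adjusted p = 1.59e-05) and H2-Q7 by 0.16 ± 0.03 (adjusted p = 0.000439), while the -0.10 ± 0.04 of H2-Q4 was not called (adjusted p = 0.0603). H2-Q4 did pass with RLE scaling (adjusted p = 0.0433), with no filter on low counts (0.0113), with DESeq2 (0.0230), with library size alone (0.000186), on log2(TPM + 1) (0.000115) and without IL-1b-treated replicate 2 (0.0421) or 3 (0.0246), each time as a fall. The H2-Q7 call was lost under the fits with the effective length (adjusted p = 0.598) and with GC and length trends removed (adjusted p = 0.232), and H2-Q6 passed under all alternatives. Within Qa-2 the mix of rows shifted as well: H2-Q6 made up 7.66% of the summed H2-Q6 and H2-Q7 TPM in IL-1b-treated, 8.88% in cultured cells and 22.1% in fresh cells, a split that rests on reads the 2 genes share.

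The H2-T genes had smaller fold changes. H2-T23 encodes the heavy chain of Qa-1, which shows leader peptides of other class I chains to an NK cell inhibitory receptor, and H2-T22 a heavy chain recognised by some gamma delta T cells. H2-T23 had 239, 270 and 259 TPM in IL-1b-treated, 312, 303 and 327 TPM in cultured, and 550, 535 and 527 TPM in fresh libraries. H2-T22 had 179, 175 and 179 TPM in IL-1b-treated, 181, 188 and 182 TPM in cultured, and 263, 264 and 267 TPM in fresh libraries. The fresh libraries were highest for both, and for H2-T22 the highest IL-1b-treated library came close to the lowest cultured one. H2-T23 fell by 0.55 ± 0.04 in cultured against fresh cells (adjusted p = 2.92e-11) and H2-T22 by 0.31 ± 0.03 (adjusted p = 2.32e-08).

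With IL-1b, H2-T23 was not called against cultured cells, at 0.02 ± 0.04 (adjusted p = 0.814). H2-T22 was higher with IL-1b than without on TMM-scaled counts, with 269 ± 1.90 CPM in IL-1b-treated and 227 ± 3.19 CPM in cultured cells and a log2 fold change of 0.24 ± 0.03 (adjusted p = 6.02e-06), but -0.05 on log2(TPM + 1). Against fresh cells the IL-1b-treated value of H2-T22 was -0.07 ± 0.03 and not called (adjusted p = 0.0633), but it passed as a fall with RLE scaling (adjusted p = 0.0435), with DESeq2 (0.0280), with library size alone (7.33e-07) and on log2(TPM + 1) (1.99e-07). The 6 H2-T rows together were 0.09 ± 0.03 higher with IL-1b than without (adjusted p = 0.0118). Against fresh cells their sum fell by 0.50 ± 0.03 in cultured (adjusted p = 2.95e-13) and by 0.41 ± 0.03 in IL-1b-treated cells (adjusted p = 7.59e-12).

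B2m, the common light chain, stood apart from its partners. It had 3921, 3653 and 3635 TPM in IL-1b-treated, 3198, 3220 and 3194 TPM in cultured, and 2940, 2986 and 2983 TPM in fresh libraries, so the order of the groups was the reverse of that of the other 9 genes. With IL-1b it rose 1.46-fold over cultured cells on TMM-scaled counts, a log2 fold change of 0.55 ± 0.03 (adjusted p = 1.70e-13) that stayed positive and called under all alternatives, between 0.22 and 0.57. Against fresh cells the IL-1b-treated value was 0.92 ± 0.03 (adjusted p = 1.02e-18), with 0.12 as the lowest alternative. Cultured cells were 0.37 ± 0.03 above fresh cells (adjusted p = 2.78e-11), but -0.17 (adjusted p = 9.72e-07), a reversed direction, with GC and length trends removed. B2m has the shortest effective length of the 10 genes, 637 bases, and the lowest GC content, 41.2%, against 978 to 3180 bases and 51.8 to 57.6% for the others, and counts came from shorter transcripts in cultured and IL-1b-treated libraries.

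Tap1, a subunit of the peptide transporter, had 90.7, 99.4 and 106 TPM in IL-1b-treated, 121, 125 and 124 TPM in cultured, and 285, 280 and 285 TPM in fresh libraries. Both 20 h groups were well under the fresh one. It fell by 1.02 ± 0.04 in cultured (adjusted p = 1.25e-16) and by 1.12 ± 0.04 in IL-1b-treated cells (adjusted p = 1.48e-17) against fresh cells. Between IL-1b-treated and cultured cells the value of -0.09 ± 0.04 was not called (adjusted p = 0.0650). It passed as a fall with RLE scaling (adjusted p = 0.0424), with DESeq2 (0.0220), with library size alone (0.000116), on log2(TPM + 1) (0.00161) and without IL-1b-treated replicate 3 (0.00850), and stood at 0.07 with GC and length trends removed (adjusted p = 0.134).

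**Figure D1:**
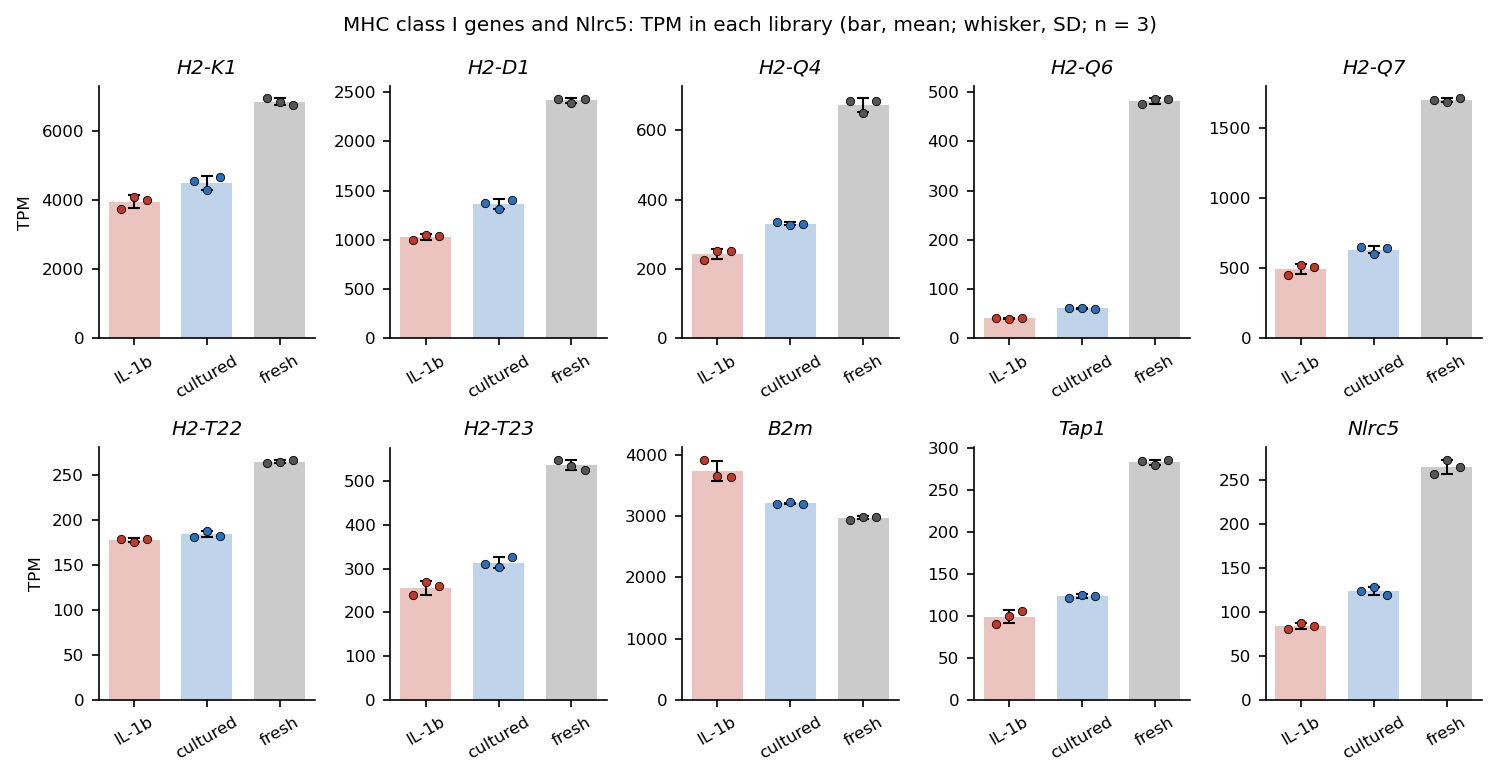
Level of each of the 10 genes in TPM (y axes starting at 0, own scale per gene) in IL-1b-treated, cultured and fresh cells. Points are libraries, bars the mean and whiskers the SD of 3. Of the 10 genes, 9 have all fresh libraries above the cultured ones, and B2m has its IL-1b-treated libraries highest, at 3635 to 3921 TPM.

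Counted together, 9 of the 10 genes fell and 1, B2m, rose in cultured against fresh cells on TMM-scaled counts. With GC and length trends removed all 10 fell, where 3257 of all 13043 genes fell and 3830 rose. Among all 13043 genes tested 58.2% were called in that comparison on TMM-scaled counts, 28.9% lower and 29.4% higher. The median log2 fold change was -0.69 over the 10 genes and 0.00 over all genes. In IL-1b-treated against fresh cells 8 fell, 1 rose and H2-T22 was not called, with 65.5% of all genes called, 32.6% lower and 32.9% higher, and medians of -0.78 and -0.01. The 2 comparisons share the fresh libraries. In IL-1b-treated against cultured cells 4 fell (H2-D1, H2-Q6, H2-Q7 and Nlrc5), 3 rose (B2m, and, on TMM-scaled counts but not in TPM, H2-K1 and H2-T22) and 3 were not called. Over all genes 28.9% were called, 13.3% lower and 15.6% higher, and the medians were -0.08 and -0.01. The 4 genes with the shorter enhancer A letters in their window, H2-K1, H2-D1, H2-Q6 and H2-Q7, stood at 0.12, -0.08, -0.27 and -0.16 with IL-1b. In TPM all 4 were lower with IL-1b. H2-Q4 and B2m, which hold the other kappa B string, stood at -0.10 and 0.55. Whether these letters bear on the values was not tested.

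The scale bears on the last comparison in particular. In TPM, 9 of the 10 genes had every IL-1b-treated library below every cultured one, but so did 45% of all genes, and 3.76% had every one above, as B2m did. Likewise 9 of the 10 lay entirely below in cultured against fresh and in IL-1b-treated against fresh cells, where 43.1% and 56.4% of all genes did, and B2m lay above, as 17.3% and 12.6% did. The median of all genes moved by -0.25 on log2(TPM + 1) between IL-1b-treated and cultured cells, by -0.19 between cultured and fresh cells and by -0.45 between IL-1b-treated and fresh cells. Relative to that median H2-K1, H2-T22 and B2m lay higher with IL-1b, and H2-D1, H2-Q4, H2-Q6, H2-Q7, H2-T23, Tap1 and Nlrc5 lower. Scaling by library size alone gave 1192 genes higher and 3270 lower with IL-1b over all genes, against 2037 and 1731 after TMM scaling, log2(TPM + 1) gave 289 and 4452, and removal of GC and length trends 1923 and 599. Between cultured and fresh cells log2(TPM + 1) gave 1877 genes higher and 4842 lower, against 3829 and 3765 after TMM scaling. Between IL-1b-treated and fresh cells it gave 1527 and 7113, and library size alone 3409 and 5277, against 4287 and 4252. With GC and length trends removed, 1 of the 10 genes fell and 3 rose between IL-1b-treated and cultured cells.

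**Figure D2:**
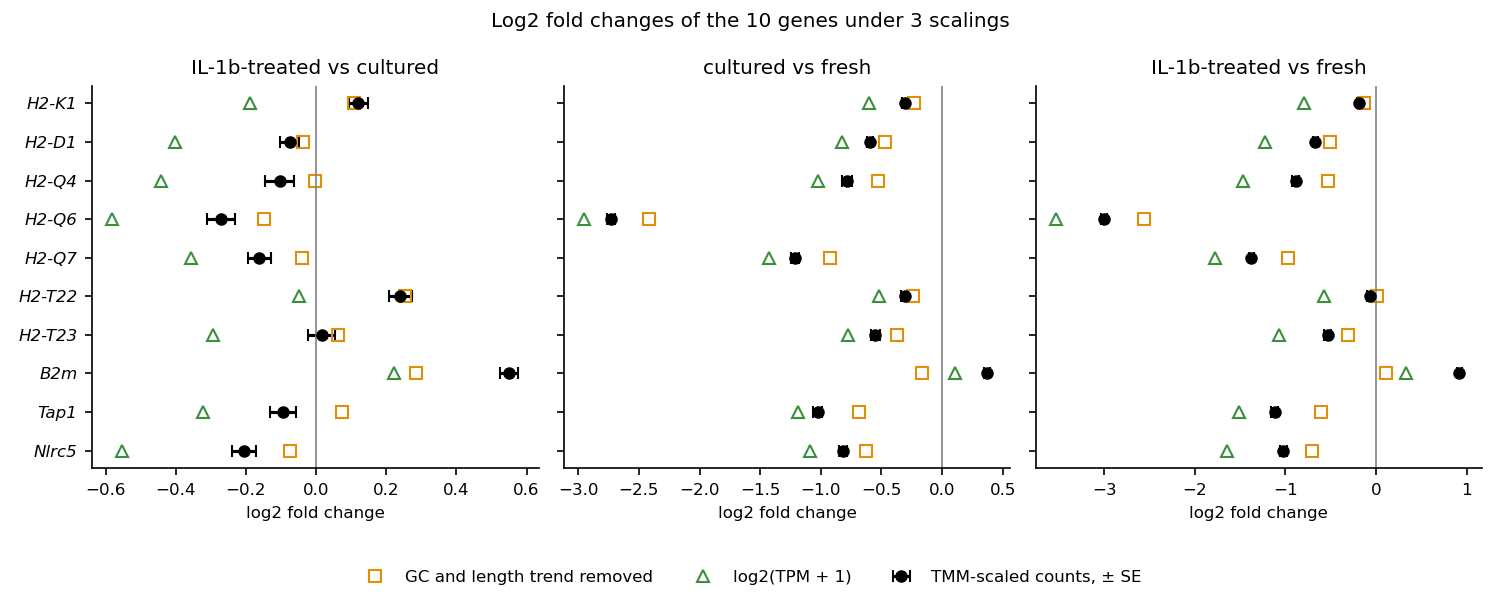
Log2 fold changes of the 10 genes in the 3 comparisons, each on its own x axis. Black points are TMM-scaled counts with their SE, squares the fit with GC and length trends removed, and triangles the difference in log2(TPM + 1). H2-Q6 lies farthest to the left in each comparison, B2m crosses 0 in cultured against fresh cells (0.37 to -0.17), and H2-K1, H2-T22 and H2-T23 on the TPM scale and Tap1 with trends removed cross it in IL-1b-treated against cultured cells.

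The order of the genes by TPM was compared within each group. In IL-1b-treated cells it ran H2-K1 (3950 ± 187), B2m (3736 ± 160), H2-D1 (1030 ± 31.8), H2-Q7 (494 ± 37.7), H2-T23 (256 ± 16.1), H2-Q4 (243 ± 14.3), H2-T22 (178 ± 1.85), Tap1 (98.8 ± 7.79), Nlrc5 (84.2 ± 2.99) and H2-Q6 (40.8 ± 0.972), all in TPM with SD and n = 3. The libraries of H2-K1 and B2m overlapped, as did those of H2-T23 and H2-Q4. In cultured cells the order was H2-K1 (4499 ± 202), B2m (3204 ± 13.9), H2-D1 (1362 ± 48.2), H2-Q7 (632 ± 28.1), H2-Q4 (331 ± 3.60), H2-T23 (314 ± 12.2), H2-T22 (184 ± 3.49), Nlrc5 (124 ± 4.76), Tap1 (124 ± 2.02) and H2-Q6 (61.5 ± 1.04). There H2-K1 and B2m were apart, and the neighbours H2-Q4 and H2-T23, and Nlrc5 and Tap1, overlapped. In fresh cells H2-K1 (6846 ± 104), B2m (2970 ± 25.8), H2-D1 (2416 ± 24.1), H2-Q7 (1696 ± 13.7), H2-Q4 (672 ± 20.2) and H2-T23 (537 ± 11.7) led without overlap. H2-Q6 (482 ± 5.91) came next, above Tap1 (283 ± 3.01), Nlrc5 (265 ± 8.50) and H2-T22 (264 ± 2.02), of which Nlrc5 and H2-T22 overlapped. H2-Q6 thus ranked last in both 20 h groups and above these 3 genes in fresh cells.

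H2-K1 made up more of the class I heavy chain messenger RNA in the 20 h groups than in fresh cells. Its share of the summed TPM of the 7 heavy chain genes was 63.8% in IL-1b-treated, 60.9% in cultured cells and 53.0% in fresh cells. H2-Q7 held 7.97% in IL-1b-treated, 8.56% in cultured cells and 13.1% in fresh cells, H2-Q6 0.660, 0.834 and 3.74%, and H2-Q4 3.93, 4.48 and 5.21%. H2-T22 held 2.87% in IL-1b-treated, 2.49% in cultured cells and 2.05% in fresh cells. The groups did not overlap in any of these 5 shares, and an exact two-sided permutation test gave p = 0.1 for each pair of groups, the smallest that 3 against 3 libraries allow. H2-T23 had overlapping shares of 4.14, 4.25 and 4.16% (exact permutation p = 0.2 between IL-1b-treated and cultured cells, 0.2 between cultured and fresh cells and 0.8 between IL-1b-treated and fresh cells). H2-D1 held 16.6, 18.4 and 18.7%, where its share was 0.256 points smaller in cultured than in fresh cells by TPM and 0.735 points larger by expected counts.

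The light chain was higher relative to the heavy chains in the 20 h groups. The ratio of B2m TPM to the summed heavy chain TPM was 0.605 ± 0.0545 in IL-1b-treated, 0.434 ± 0.0189 in cultured cells and 0.230 ± 0.0041 in fresh cells (SD, n = 3 each), with no overlap and p = 0.1 (exact permutation) for each pair. The summed heavy chain TPM was 6192 ± 285, 7383 ± 285 and 12914 ± 121 in the same order. The shares and the ratio were recomputed from expected counts and with libraries left out, but not with GC and length trends removed. In the edgeR fit without these trends B2m stood at -0.17 in cultured against fresh cells (adjusted p = 9.72e-07), and the median of the 10 genes was -0.50. The size of the shift in the ratio may therefore depend on the scale. Of all counts in a library the 10 genes together took 0.944% with IL-1b, 0.945% in cultured cells and 1.42% in fresh cells.

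**Figure D3:**
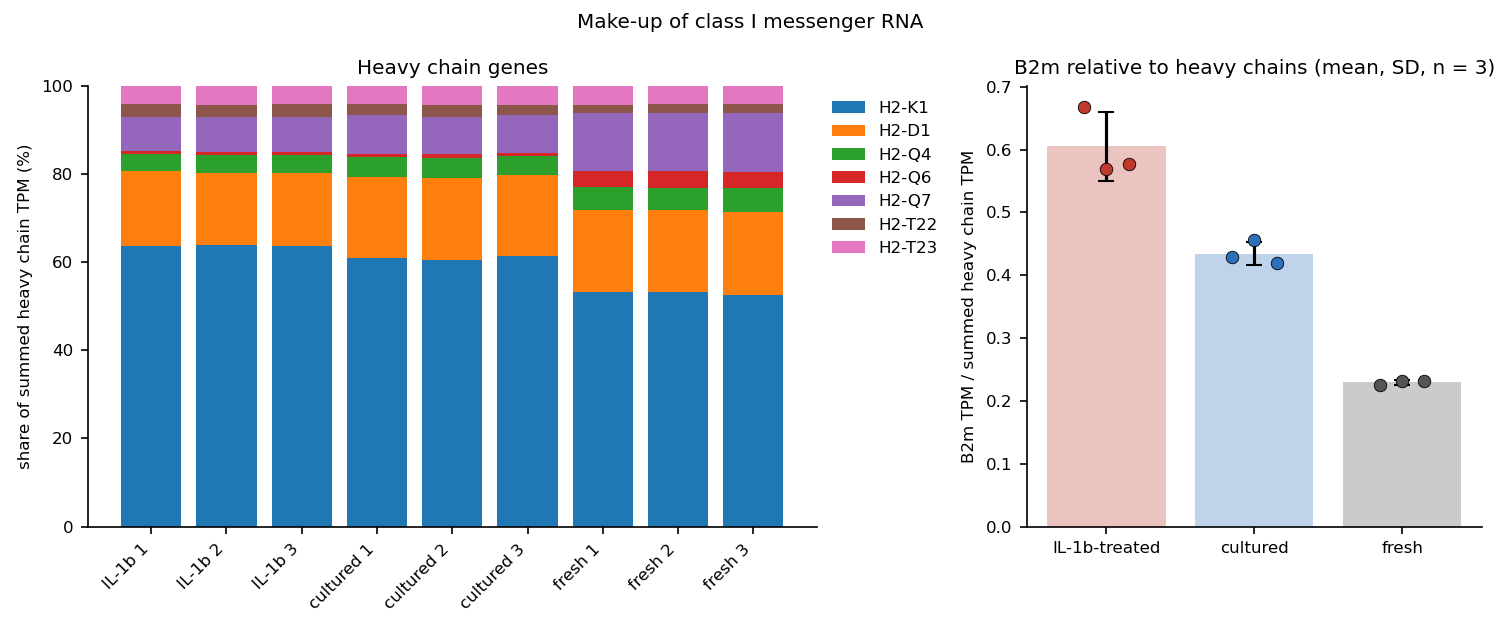
Left, share of each heavy chain gene in the summed TPM of the 7 heavy chain genes, 1 stacked bar per library (y axis in percent). Right, ratio of B2m TPM to that sum, with points for libraries, bars for the mean and whiskers for the SD of 3. H2-K1 takes 63.8, 60.9 and 53.0% in IL-1b-treated, cultured and fresh cells, and the ratio is 0.605, 0.434 and 0.230.

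The 10 genes also differed in how alike their patterns were over the 9 libraries. As a measure, log2 CPM was centred on each gene's mean, and the root mean square difference between 2 genes was taken. H2-D1 and H2-T23 were the closest pair at 0.0600, followed by H2-K1 and H2-T22 at 0.0725 and H2-Q4 and Nlrc5 at 0.0805. Tap1 lay 0.0981 from Nlrc5, and H2-Q6 and B2m were farthest apart at 1.69. Among 8100 genes with a mean of at least 10 CPM, those nearest to Nlrc5 outside the set were Rhobtb2 (0.0286), Diaph1 (0.0331), Ski (0.0377), Hk1 (0.0385) and B4galnt1 (0.0428). Nearest to the mean pattern of the 10 genes were Pfn1 (0.0262), Stip1 (0.0276), Lcp1 (0.0361), Rhof (0.0375) and Arl4c (0.0456).

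Genes that load peptides or cut them for class I were lower in cultured than in fresh cells more often than higher. Of 12 listed genes of the loading complex and immunoproteasome 9 fell and 1 rose, where 28.9% of all genes fell and 29.4% rose, and the median was -0.32. Tap2, the partner of Tap1, fell by 0.81, the loading factor Tapbp by 0.78, the immunoproteasome subunit Psmb9 by 1.05 (adjusted p = 5.35e-14, 1.57e-14 and 1.84e-14), and the chaperone Calr by 0.62 (adjusted p = 8.21e-14). With IL-1b against cultured cells 8 of the 12 rose and 2 fell on TMM-scaled counts, where 15.6% of all genes rose and 13.3% fell, and the median was 0.13. In TPM the direction of the list was the opposite, with 0 of the 12 entirely above and 8 entirely below the cultured libraries, as were 3.76% and 45% of all genes. Tap2 fell by 0.19 (adjusted p = 0.00145) and Tapbp by 0.13 (adjusted p = 0.00976) on TMM-scaled counts. With GC and length trends removed 8 of the 12 rose and 0 fell, where 1923 and 599 of all 13043 genes did. Both calls were lost there, with Tap2 at -0.01 (adjusted p = 0.908) and Tapbp at -0.03 (adjusted p = 0.507). The Tapbp call was also lost with the effective length offset (adjusted p = 0.821) and without IL-1b-treated replicate 1 (0.0688) or cultured replicate 3 (0.0642). The immunoproteasome subunit Psmb8 rose by 0.19 (adjusted p = 0.000293) on TMM-scaled counts but stood at -0.12 on log2(TPM + 1). In IL-1b-treated against fresh cells 2 rose and 5 fell, so that 7 of the 12 were called, where 65.5% of all genes were.

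Other class I rows followed the members only in part. Of 28 listed genes 11 could be tested: 6 fell and 2 rose in cultured against fresh cells, where 28.9% of all genes fell and 29.4% rose, and the median was -0.57. H2-Q10, a mainly secreted heavy chain, fell by 2.64, H2-Q5 by 1.67, H2-T24 by 1.46 and H2-T10 by 0.57 (adjusted p = 1.82e-13, 1.45e-16, 7.02e-13 and 1.35e-08). These rows belong to families whose members can share reads. The 2 that rose were Cd1d1, which presents lipids, by 0.52, and the row H2-T-ps by 0.58, both named after their values were seen. Between IL-1b-treated and cultured cells H2-Q5 fell by 0.27 (adjusted p = 0.00333) and none rose, against 13.3% and 15.6% of all genes. The H2-Q5 call was lost with the effective length offset (-0.03, adjusted p = 0.927) and on log2(TPM + 1) (-0.36, adjusted p = 0.0946). Of 23 H2-Q, H2-T and H2-M rows outside the set, 10 had no count in any library and 6 had 1 to 20 counts over all 9.

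Some of the factors that work with Nlrc5 were lower in cultured than in fresh cells. The 9 listed genes were the SXY-binding factors and Ciita, which is not one of these factors. In cultured against fresh cells 5 of the 9, Ciita among them, fell and 1 rose, against 28.9% and 29.4% of all genes, the median being -0.30. Ciita, the transactivator of class II genes, averaged 0.257 TPM in IL-1b-treated, 0.413 TPM in cultured and 2.50 TPM in fresh cells and fell by 2.82 in cultured against fresh cells (adjusted p = 1.89e-07). Rfx5, which binds the X box, fell by 0.62 and Nfya, which binds the Y box, by 0.36 (adjusted p = 2.14e-06 and 1.49e-05). Creb1, of the X2-binding family, was 0.15 higher on TMM-scaled counts (adjusted p = 0.00142) and -0.32 on log2(TPM + 1). With IL-1b against cultured cells 1 of the 9 rose and 1 fell, against 15.6% and 13.3% of all genes. The gene that fell was Nfya, by 0.25 (adjusted p = 0.00266), a call lost with the effective length offset (-0.18, adjusted p = 0.227). The gene that rose was Nfyb, also of the Y-box binding complex, by 0.22 (adjusted p = 0.0290), with -0.13 on log2(TPM + 1); it was named after its value was seen.

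Genes of interferon signalling were mostly lower in cultured than in fresh cells, with 8 of 12 down and 2 up, against 28.9% and 29.4% of all genes, and a median of -0.39. Irf1, which binds interferon response elements, had 102, 115 and 267 TPM in IL-1b-treated, cultured and fresh cells and fell by 0.93 in cultured against fresh cells (adjusted p = 3.38e-15), and Irf9 fell by 1.12 (adjusted p = 4.58e-15). The receptor chain Ifngr1 was higher instead, with 370, 403 and 78.4 TPM, and rose by 2.64 (adjusted p = 1.64e-24). With IL-1b against cultured cells 2 of the 12 rose and 3 fell, against 15.6% and 13.3% of all genes. This balance turned with the scaling: 5 rose and 1 fell with GC and length trends removed, where 1923 and 599 of all 13043 genes did. In TPM 0 lay entirely above and 10 entirely below the cultured libraries, as did 3.76% and 45% of all genes. Irf1 rose by 0.16 (adjusted p = 0.00372) and Ifngr1 by 0.24 (adjusted p = 2.06e-06) on TMM-scaled counts, with -0.17 and -0.12 on log2(TPM + 1). The Irf1 call as a rise was also lost with library size alone (adjusted p = 0.403) and with the effective length offset (adjusted p = 0.0807).

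Among other NOD-like receptor genes 5 of 12 were testable, and all 5 fell in cultured against fresh cells, where 28.9% of all genes fell. With GC and length trends removed 4 fell, where 3257 of all 13043 genes did, and Nlrc3 stood at -0.04 (adjusted p = 0.395). The median of the 5 was -1.82, with Nod2 at -2.86, Nlrx1 at -1.82, Nod1 at -0.95 and Nlrc3 at -0.34. Levels were low for Nod2 (0.652 CPM in cultured, 4.79 CPM in fresh cells) and Nlrp1b (0.233 and 1.70 CPM). Such genes may have passed the filter on low counts through the fresh libraries alone, which favours a fall, so the count of falls is no independent result. Nlrc3 was the only one called between IL-1b-treated and cultured cells, where it fell by 0.30 (adjusted p = 1.67e-05), a call lost with GC and length trends removed (-0.10, adjusted p = 0.119). The class II genes, which mark B cells and other antigen-presenting cells, fell in 9 of 9 cases in cultured against fresh cells. Of all genes 28.9% fell, and the class II median was -4.24. H2-DMb1 (0.0412 CPM in cultured, 2.63 CPM in fresh cells) and H2-DMb2 (0.295 and 5.90 CPM) may also have passed the filter through the fresh libraries alone. The class II genes summed to 64.4 to 76.6 TPM in IL-1b-treated, 79.9 to 94.0 TPM in cultured and 341 to 422 TPM in fresh libraries. H2-Ob, with means of 42.9, 51.0 and 83.9 TPM, and H2-DMa, with 15.4, 20.6 and 44.8 TPM, were the largest parts in the 20 h groups. The fall of H2-Ob in cultured against fresh cells was 0.25 (adjusted p = 0.00391). Cd74, the chain that accompanies class II molecules, had 5.08, 5.63 and 131 TPM. With IL-1b against cultured cells H2-Aa was called higher and H2-Eb1 lower, both under 3 TPM and both calls lost, among other settings, with the effective length offset (adjusted p = 0.0773 and 0.0963). The summed B cell markers were also highest in fresh libraries, as given above, and the part of B cells in the class I values was not tested.

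**Figure D4:**
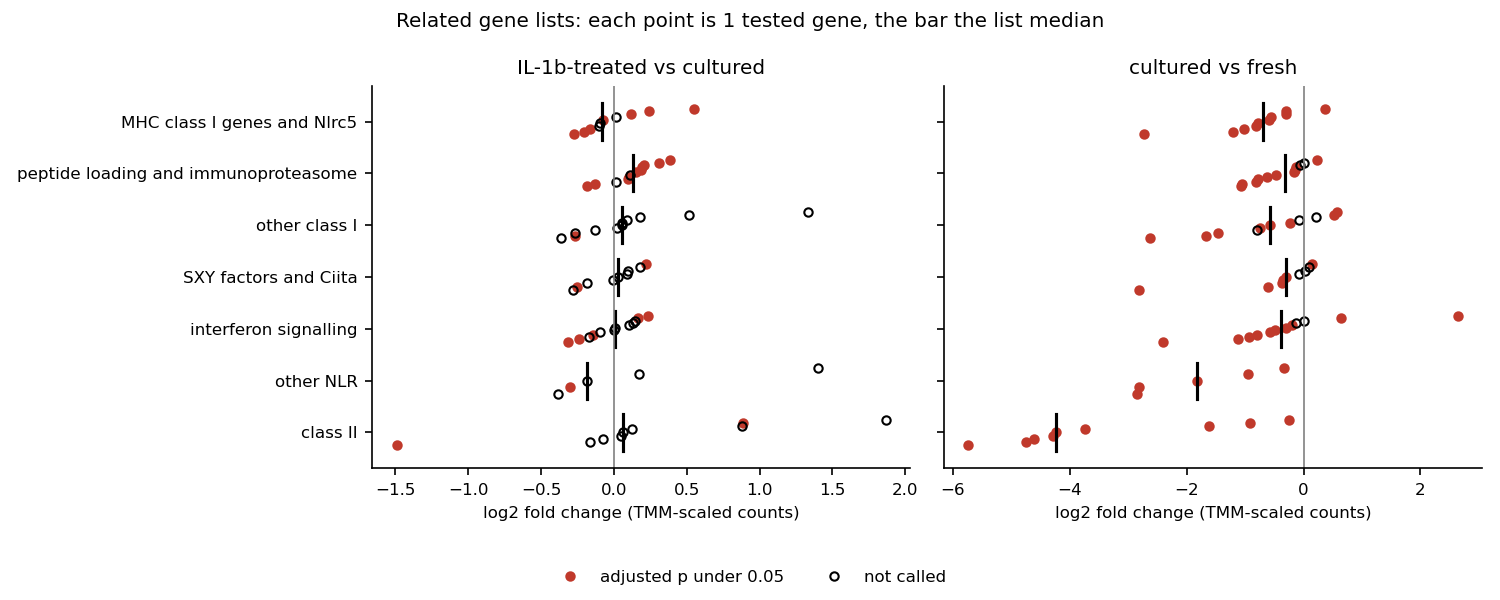
Log2 fold changes on TMM-scaled counts (x axes) of the 10 genes and of 6 related gene lists (rows), left for IL-1b-treated against cultured and right for cultured against fresh cells. Each point is 1 tested gene, filled where its adjusted p is under 0.05, and bars are list medians. The medians of the 10 genes are -0.08 and -0.69, those of the class II list 0.06 and -4.24.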

How the data were processed

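Polyadenylated RNA of 9 libraries was sequenced. RNAiso PLUS extraction, a column clean-up and a directional NEBNext kit were used, per the labels' protocols. Per the submitters' processing notes, STAR and RSEM were run on mm10, with versions and strand setting not given in the sources at hand. Per the file headers, the deposited tables hold RSEM expected counts (not normalised), TPM values made by the authors from those counts and effective lengths, lengths in bases, and FPKM, not used here. RSEM divides reads that match several genes between them, so rows of close copies are uncertain. Nothing in the labels makes the replicates separate animals or cultures, and the p-values then measure only the spread between these libraries, which may be technical.

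Of 55487 identifiers, 55141 (99.38%) have a symbol in GENCODE M21, on the same assembly as mm10. Expected counts were rounded to whole numbers and entered edgeR 4.0.16 (R 4.3.3), where they were filtered by filterByExpr, scaled by TMM and compared by a quasi-likelihood F test over all 9 libraries with group as the only term, with Benjamini-Hochberg adjustment over 13043 genes and a threshold of 0.05. The biological coefficient of variation was 0.0665. Libraries held 13518814 to 23056686 counts. Levels are TPM. Shares were compared by exact permutation tests. Alternatives were RLE and library size scaling, no filter, DESeq2 1.42.0, limma 3.58.1 on voom values and on log2(TPM + 1) or log2(TPM + 0.1), an effective length offset, GC and length trends removed per library with mgcv 1.9.3, only the groups compared, a replicate block, summed families, and each library left out in turn. The directional kit marks strand, but antisense partners may still share counts.

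The members, lists, tests and the rule for named genes (all 10 members, and from each list up to 4 genes by smallest adjusted p, with Tap2, Irf1, Psmb8, Psmb9 and Rfx5 always; 1 gene the rule names is not reported here) were chosen with earlier results of these data known. Motif letters came from the known enhancer A, SXY, interferon response and gamma activated elements. Promoter windows are from RefSeq on GRCm38.p6. The GENCODE annotation has H2-D1 and H2-T23 transcripts that start upstream of the RefSeq start.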

Additional observations from a re-analysis of the deposited data

How the results depend on the processing

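Of 360 fold changes of the 10 genes recomputed with another fit, 321 kept their direction and their side of the threshold, and of 270 recomputed with 1 library left out 259 did. Between IL-1b-treated and cultured cells the 3 rises and 4 falls became 1 rise and 8 falls on log2(TPM + 1) and on log2(TPM + 0.1), 3 rises and 2 falls with the effective length offset, and 3 rises and 1 fall with GC and length trends removed. Between cultured and fresh cells the 1 rise became 0 with GC and length trends removed. Leaving out a library left 3 rises and 3 to 5 falls in the first of these comparisons. These alternatives scale the same counts, and the cause of the differences was not tested beyond that.

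Among the 10 genes and those called genes of the lists that the rule for named genes picks, directions that reversed between IL-1b-treated and cultured cells were, on both TPM scales, those of H2-K1 (-0.19), H2-T22 (-0.049), H2-T23 (-0.29), Irf1 (-0.17), Psmb8 (-0.12), Calr (-0.23) and Ifngr1 (-0.12). With library size alone H2-T23 stood at -0.10 and Calr at -0.010. H2-D1 stood at 0.056 in the summed family, Tap1 at 0.074 with GC and length trends removed, and H2-T23 ranged over the left-out libraries from -0.018 (without IL-1b-treated replicate 2) to 0.065, with -0.0087 without cultured replicate 2. Between cultured and fresh cells B2m reversed to -0.17 with GC and length trends removed, and Creb1 to -0.32 on log2(TPM + 1), -0.33 on log2(TPM + 0.1) and -0.087 with the length offset. Between IL-1b-treated and fresh cells H2-T22 moved to 0.0092 with GC and length trends removed, and Creb1 to -0.61, -0.62 and -0.071 under the same 3 settings. By expected counts, the share of H2-D1 in cultured minus fresh cells was 0.735 points and that of H2-T23 in IL-1b-treated minus fresh cells 0.255 points. That difference for H2-T23 ranged from -0.0644 to 0.0105 points over the left-out libraries, with 0.0105 without IL-1b-treated replicate 1 and 0.0027 without fresh replicate 1.

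The labels number replicates 1 to 3 in each group. Libraries with the same number did not deviate together (correlations of -0.022 to 0.019 across genes), and those with unlike numbers ranged from -0.051 to 0.033. These values gave no sign of pairing by number but cannot exclude it. With a replicate block H2-D1 was not called between IL-1b-treated and cultured cells (-0.07, adjusted p = 0.0558), leaving 3 rises and 3 falls, and cultured against fresh cells kept 1 rise and 9 falls.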
